A study of Mus musculus with 27 samples.

Results

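Gpx4 knockout mouse stomach organoids were compared between passage 10 and passage 5. The comparison used every library labelled as a Gpx4 knockout Mist1+ organoid of those passages, 3 at passage 10 and 3 at passage 5, which is 6 of the 27 samples of the series. The knockout organoids (KO) came from mice carrying Gpx4F/F, Mist1CreERT2 and RFPLSL, and the organoids without a knockout (WT) from mice carrying Mist1CreERT2 and RFPLSL only. Per the labels, the stomachs were from adult animals, the starting cells of Mist1+ organoids were RFP-positive cells collected by FACS, and all organoids grew in Matrigel in a proliferating medium. Mist1CreERT2 drives recombination in cells that transcribe Mist1, so the label KO describes the cells from which the organoids were grown. The sources used here do not say how many animals or founder cells each line had. KO organoids of passage 15 (3 libraries) are given for their levels. WT organoids of passages 10 and 5 (3 libraries each) were the second genotype, and Mist1- organoids of passage 5 (3 libraries) entered the estimate of the spread.

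GPX4 is the selenium-containing enzyme that reduces lipid hydroperoxides in membranes, and cells that lose it become prone to ferroptosis, an iron-dependent death by lipid peroxidation. The Mist1 protein (gene Bhlha15) is a regulator that builds up the secretory machinery of gland cells, and in the stomach it marks chief cells and some isthmus cells. The gastric surface is covered by pit cells, which secrete the gel-forming mucin MUC5AC with gastrokines and TFF1, while mucous neck cells of the glands secrete TFF2 and a different mucin.

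RNA was read as counts per gene, with 13805585 to 18732693 counts in each of the 6 KO libraries, and 14984 genes passed the filter on low counts. Levels are given as CPM, counts per 1000000 of the scaled library total, each mean with its SD over 3 libraries, and differences as log2 fold changes with their SE. Genes are said to have risen or fallen where the adjusted p of edgeR's quasi-likelihood test was under 0.05. Separate cultures or animals are not named for the 3 libraries of a group, so the p-values measure only the spread between these libraries, which may be technical. That spread was small, with a biological coefficient of variation of 2.41%, and most called changes were small too, with a median size of 0.239 on the log2 scale.

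At passage 10, 1757 genes were higher (11.7% of those tested) and 1573 were lower (10.5%) than at passage 5 in KO organoids, together 22.2% of the genes tested. Changes of 2-fold or more were found in 151 higher genes (1.01%) and 186 lower genes (1.24%). The median log2 fold change of all genes tested was 0.006. These shares are the background against which each gene group below is to be read. A second fit held all 21 libraries, with the 3 WT passage 15 libraries added, and called far fewer genes, 588 higher and 562 lower. The coefficient of variation between libraries was 21.1% within WT passage 15 and 1.89% to 3.07% within the other groups, and 8.23% in the fit of all 21 libraries. Where that fit moved a group's count by more than 1.5 times, its numbers of higher and lower genes follow in square brackets. A dagger marks a gene that was not called in that fit.

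The targeted gene itself did not pass the test. Gpx4 (ENSMUSG00000075706, chr10:80047166-80056439, plus strand) had 100.2, 97.2 and 87.8 CPM in the KO P10 libraries, against 101, 98.5 and 97.8 CPM in the KO P5 libraries (log2 -0.064 ± 0.039, adjusted p = 0.266). The library ranges overlapped, and the transcript was not lost in either group. WT organoids averaged 117 CPM at P10 against 129 CPM at P5 (adjusted p = 0.00162), and each of their libraries was above all 6 KO libraries. Counts over a whole gene do not separate an intact transcript from one that lacks the floxed exons, so they check the knockout label only in part. Bhlha15 (ENSMUSG00000052271, chr5:144190286-144194441, plus strand) fell, with 6.14, 5.67 and 5.54 CPM in the KO P10 libraries, against 10.8, 9.81 and 9.81 CPM in the KO P5 libraries (log2 -0.81 ± 0.13, adjusted p = 4.38e-08). All KO P10 libraries were below all KO P5 libraries. Its KO means were 10.2, 5.78 and 11.1 CPM at passages 5, 10 and 15.

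The libraries were epithelial. The 7 general epithelial genes, among them the adhesion molecule Epcam and the keratins Krt8, Krt18 and Krt19, summed to 6790 to 6997 CPM at KO P10 and 7038 to 7193 CPM at KO P5. Markers of fibroblasts and smooth muscle, endothelial, enteroendocrine and immune cells were low or near 0. The 11 fibroblast and smooth muscle genes summed to 1.59 to 2.302 CPM at KO P10 and 1.02 to 1.201 CPM at KO P5, with Col1a2, Dcn and Lum at 0 counts. The 9 endothelial genes summed to 0.767 to 1.22 CPM at KO P10 and 0.783 to 1.38 CPM at KO P5, with Emcn and Cldn5 at 0 counts. The 12 enteroendocrine genes summed to 0.658 to 1.02 CPM at KO P10 and 0.626 to 1.104 CPM at KO P5, with Gast, Sst, Neurog3, Neurod1, Tph1 and Cck at 0 counts. The 11 immune genes summed to 8.58 to 11.1 CPM at KO P10 and 10.1 to 10.8 CPM at KO P5, including the macrophage gene Cd68 (7.46 CPM at P10 against 8.303 CPM at P5). Some mature zymogenic and parietal markers had 0 counts at both passages, namely the chief cell products Pga5, Lipf and Chia1 and the parietal genes Slc26a7, Cckbr and Hrh2. Others were detected, among them the zymogen gene Pgc described below and the proton pump gene Atp4a, with 74 counts over the KO P10 libraries and 102 over the KO P5 libraries. The 11 tuft cell genes summed to 127 to 133 CPM at KO P10 and 147 to 152 CPM at KO P5. Most of this was Avil, whose exons overlap Tsfm (122 CPM at P10 against 145 CPM at P5). The tuft genes Pou2f3, Il25, Gfi1b and Sh2d6 had 0 counts. Of 4 tuft genes tested, 2 rose and 1 fell. In bulk RNA, fewer cells of a type and less RNA per cell cannot be told apart.

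Genes of surface mucous cells and their mucus were among the largest rises. Of the pit cell genes, 11 of 15 tested rose and 3 fell [5 and 2] (median log2 0.42), from a list of 16 names. WT organoids had 11 of these 15 genes higher and 2 lower at passage 10 (median log2 0.299), against 18.5% of all genes called in either direction. Muc5ac (ENSMUSG00000037974, chr7:141788972-141819231, plus strand) had the highest log2 fold change of the genes ranked by their KO change. These were called protein-coding genes with a gene name and a mean of at least 10 CPM over the 6 KO libraries. They were also required to have no overlap between the KO P10 and KO P5 libraries. For the 10 highest and 10 lowest genes that separation was thus fixed by the choice. Muc5ac had 174, 190.0 and 197 CPM in the KO P10 libraries, against 55.03, 56.6 and 58.8 CPM in the KO P5 libraries (log2 1.72 ± 0.034, adjusted p = 4e-84). The groups were far apart, and the lowest KO P10 library stood well above every KO P5 library. Clca1, which encodes a secreted protein of mucus-producing cells and was not on the pit cell list, had 786, 778 and 770.4 CPM in the KO P10 libraries, against 241, 240.3 and 246 CPM in the KO P5 libraries (log2 1.68 ± 0.018, adjusted p = 1.25e-161). Its libraries were close together within each passage and did not overlap between them. The genes Gkn1 and Gkn2 encode the gastrokines of pit cells. Gkn1 had 366, 348 and 331 CPM in the KO P10 libraries, against 156, 159.9 and 159.8 CPM in the KO P5 libraries (log2 1.14 ± 0.024, adjusted p = 1.63e-75). Gkn2 had 564, 565 and 524 CPM in the KO P10 libraries, against 245, 239 and 254 CPM in the KO P5 libraries (log2 1.16 ± 0.034, adjusted p = 4.59e-14). Every KO P10 library was above every KO P5 library for both. The surface antigen Psca averaged 103 ± 5.4 CPM at P10 against 47.9 ± 0.86 CPM at P5 (SD, n = 3 each, log2 1.101 ± 0.042, adjusted p = 2.71e-55). The alcohol dehydrogenase Adh7, which oxidises ethanol and retinol, averaged 72.8 ± 4.4 CPM at P10 against 32.1 ± 2.7 CPM at P5 (log2 1.18 ± 0.05).

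Not all pit cell genes moved together. Tff1, which encodes the trefoil peptide secreted with MUC5AC, rose by a smaller step (1091 CPM at P10 against 809.9 CPM at P5, log2 0.43†). So did cathepsin E, Ctse (156 CPM at P10 against 130.3 CPM at P5, log2 0.26), and the junctional protein gene Vsig1 (501 CPM at P10 against 448 CPM at P5, log2 0.16†). The claudin of gastric tight junctions, Cldn18, did not pass the test (1367 CPM at P10 against 1335 CPM at P5, adjusted p = 0.0964). The 3 members that fell were 2 enzymes and a mucin-like gene. They were the sulfotransferase Sult1c2 (516 CPM at P10 against 621 CPM at P5, log2 -0.27), the mucin-like Mucl3 (91.4 CPM at P10 against 118 CPM at P5, log2 -0.37) and the aldehyde dehydrogenase Aldh3a1 (513 CPM at P10 against 579 CPM at P5, log2 -0.17†). Summed over the list, pit cell genes held 6309 to 6512 CPM at KO P10 and 5449 to 5534 CPM at KO P5. WT organoids were higher at both passages, with 12710 to 12970 CPM at P10 and 10200 to 10430 CPM at P5.

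Other genes completed the 10 highest. Rep15, which encodes an effector of the small GTPase Rab15, averaged 16.5 ± 1.2 CPM at P10 against 5.88 ± 0.063 CPM at P5 (log2 1.49 ± 0.11). The galectin Lgals2 averaged 14.6 ± 1.3 CPM at P10 against 5.97 ± 0.4 CPM at P5 (log2 1.29 ± 0.12). Clca3a2 is a close relative of Clca1 whose reads may be shared with other Clca genes. It averaged 35.8 ± 2.1 CPM at P10 against 15.5 ± 0.78 CPM at P5 (log2 1.21 ± 0.068). Hmga2, an architectural chromatin protein best known from embryonic tissue, averaged 21.9 ± 1 CPM at P10 against 8.66 ± 0.86 CPM at P5 (log2 1.34 ± 0.096).

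**Figure D1:**
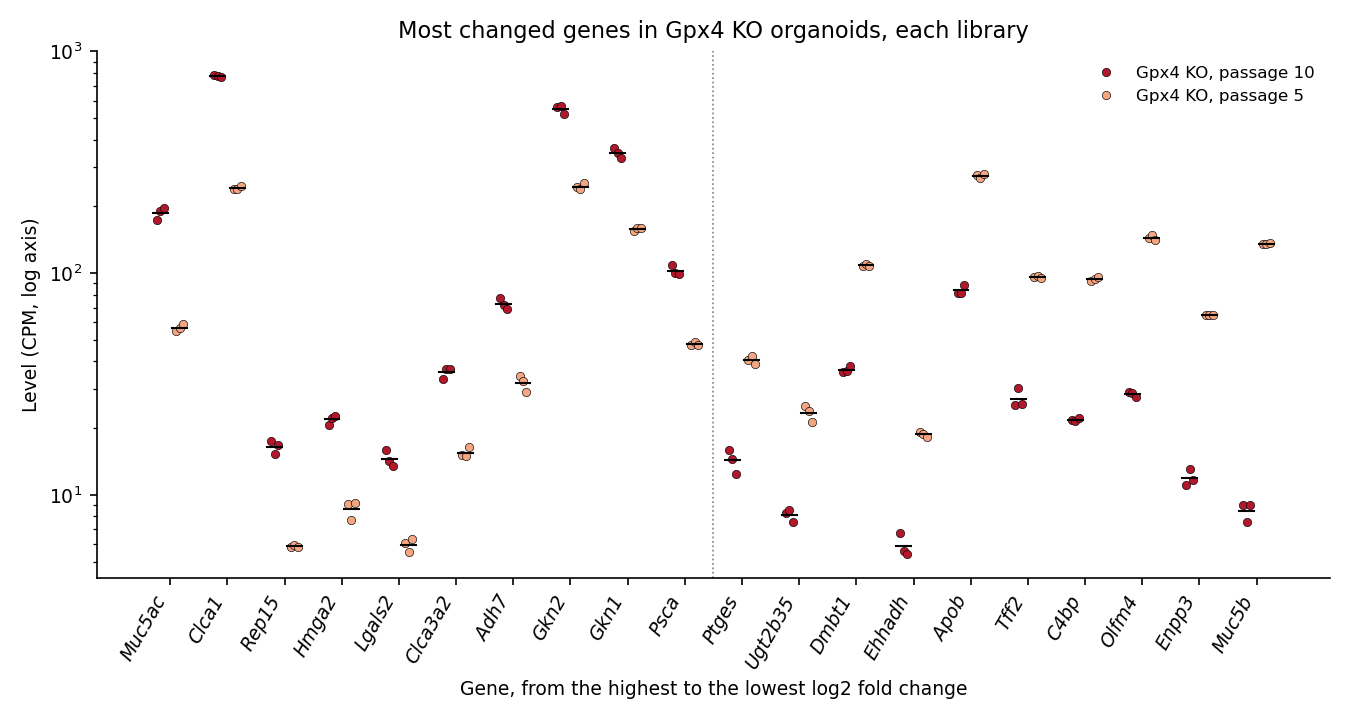
Level in CPM (log axis) of the 10 highest and 10 lowest called genes with a mean of at least 10 CPM, with 1 point per library and a bar at the mean of 3 libraries, Gpx4 KO passage 10 left of passage 5 for each gene. Only genes whose groups do not overlap were taken, so that separation was fixed by the choice. Muc5ac stands at 174 to 197 CPM at passage 10 and 55.0 to 58.8 CPM at passage 5. Muc5b stands at 7.51 to 9.02 CPM at passage 10 and 135 to 137 CPM at passage 5.

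The opposite change was seen in the neighbouring gel-forming mucin gene. Muc5b (ENSMUSG00000066108, chr7:141839070-141873084, plus strand) lies next to Muc5ac in the mucin cluster of chromosome 7, as placed by GENCODE M21 on GRCm38. It had 9.02, 7.51 and 8.99 CPM in the KO P10 libraries, against 136, 135 and 137 CPM in the KO P5 libraries (log2 -3.99 ± 0.063, adjusted p = 4.89e-130). Its log2 fold change was the lowest of the genes ranked by their KO change, whose choice required that the libraries did not overlap. Per length, in FPKM (fragments per kilobase of exon and 1000000 counts), Muc5ac was at 17.7 and Muc5b at 0.577 at KO P10, while at KO P5 Muc5ac was at 5.400 and Muc5b at 9.29. The gel-forming mucin with the higher level per length was thus Muc5ac at passage 10 and Muc5b at passage 5. The intestinal mucin Muc2 in the same cluster (chr7:141690340-141754693, plus strand) was near the detection limit, with 22 counts over the KO P10 libraries, against 76 over the KO P5 libraries (log2 -1.604 ± 0.39, adjusted p = 0.000595†). Muc6, the mucin of neck cells, had 14 counts over the KO P10 libraries and 21 over the KO P5 libraries and did not pass the filter.

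The other mucins that passed the test fell. Of the mucins, 1 of 9 tested rose and 7 fell (median log2 -0.403), from a list of 16 names. Muc13, a membrane mucin, had 1.599, 0.992 and 0.877 CPM in the KO P10 libraries, against 7.45, 7.36 and 6.38 CPM in the KO P5 libraries (log2 -2.62 ± 0.21, adjusted p = 7.49e-24). The groups did not overlap, and the KO P10 level was low. The membrane mucins Muc4 (384 CPM at P10 against 528 CPM at P5, log2 -0.46†) and Muc1 (1084 CPM at P10 against 1233 CPM at P5, log2 -0.19) fell by smaller steps. Muc20 fell as well (8.44 CPM at P10 against 11.2 CPM at P5, log2 -0.403). Muc16 did not pass the test (0.527 CPM at P10 against 0.366 CPM at P5, adjusted p = 0.5). In WT organoids 7 of the 9 mucins rose and 0 fell at passage 10, against 18.5% of all genes tested called in either direction.

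Several neck cell genes fell. Of the list for mucous neck cells and spasmolytic polypeptide-expressing metaplasia, 1 of 12 tested rose and 5 fell [1 and 3] (median log2 -0.15). In that metaplasia gland cells come to express neck cell genes. WT organoids had 1 of these 12 genes higher and 9 lower at passage 10 (median log2 -0.24), against 18.5% of all genes called in either direction. Tff2, the spasmolytic polypeptide itself, had 25.5, 30.3 and 25.6 CPM in the KO P10 libraries, against 95.98, 96.9 and 95.4 CPM in the KO P5 libraries (log2 -1.83 ± 0.047, adjusted p = 3.24e-92). Its groups did not overlap, which the choice of the lowest genes required for it and for Olfm4. Olfm4, a secreted glycoprotein that marks crypt base cells in the intestine, had 29.2, 28.7 and 27.8 CPM in the KO P10 libraries, against 144, 149 and 140.5 CPM in the KO P5 libraries (log2 -2.34 ± 0.053, adjusted p = 1.2e-101), again with no overlap. Gkn3, the gastrokine of neck cells, averaged 64.97 ± 0.68 CPM at P10 against 99.6 ± 2.6 CPM at P5 (log2 -0.62 ± 0.039). The secreted chaperone clusterin, Clu, averaged 8157 ± 117 CPM at P10 against 9510 ± 95 CPM at P5 (log2 -0.22 ± 0.011†). The water channel Aqp5 was the 1 member that rose (51.5 ± 2.6 CPM at P10 against 25.5 ± 0.27 CPM at P5, log2 1.02 ± 0.061), and Wfdc2 did not pass the test (412 CPM at P10 against 406 CPM at P5, adjusted p = 0.595).

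Of chief cell genes, 2 of 8 tested rose and 4 fell (median log2 -0.23). The zymogen gene Pgc rose (16.8 CPM at P10 against 9.28 CPM at P5, log2 0.84), while the vesicle gene Rab3d (164 CPM at P10 against 189 CPM at P5, log2 -0.21) and the disulfide isomerase Agr2 (53.8 CPM at P10 against 76.3 CPM at P5, log2 -0.51) fell. Of parietal cell genes, 2 of 6 tested rose and 2 fell (median log2 -0.13). Carbonic anhydrase 2, Car2 (443 CPM at P10 against 318 CPM at P5, log2 0.48), and the sodium-proton exchanger Slc9a4 (244 CPM at P10 against 193 CPM at P5, log2 0.34) rose. Clic6 (1.22 CPM at P10 against 3.37 CPM at P5, log2 -1.48) and Kcnq1, whose exons overlap Kcnq1ot1 (51.9 CPM at P10 against 65.5 CPM at P5, log2 -0.33), fell. For isthmus and stem cell genes, 5 of 14 tested rose and 1 fell [3 and 0] (median log2 -0.056). The number of lower genes was 2 without the third KO P10 or the second KO P5 library and 3 without the third KO P5 library. The TNF receptor Tnfrsf19, also called Troy, rose (8.99 ± 1.1 CPM at P10 against 2.68 ± 0.28 CPM at P5, log2 1.75 ± 0.16). Lgr5, the R-spondin receptor of gastric stem and chief cells, did not pass the test (41.8 CPM at P10 against 45.7 CPM at P5, adjusted p = 0.0964). Of intestinal genes, 2 of 9 tested rose and 4 fell [1 and 2] (median log2 -0.17), with 1 higher gene without the first KO P10 library. The cadherin gene Cdh17 rose, with 32 counts over the KO P10 libraries and 4 over the KO P5 libraries (log2 3.04, adjusted p = 0.000375). Its log2 value was 4.24 without the first KO P5 library. The intestinal regulator Cdx1 had 0 counts, and Cdx2 had 5 counts over the KO P10 libraries and 28 over the KO P5 libraries (log2 -2.24 ± 0.701, adjusted p = 0.0102†). That call was lost without the first KO P10 library (log2 -2.01, adjusted p = 0.0526), without the third (-1.90, adjusted p = 0.0736) and without the third KO P5 library (-1.87, adjusted p = 0.0896). Of squamous genes, 3 of 5 tested rose and 0 fell (median log2 0.19). Lower ones numbered 0 at an unadjusted p under 0.05 and 0 by DESeq2. The cornified envelope precursors Sprr1a (60.7 CPM at P10 against 30.3 CPM at P5, log2 1.005) and Ivl (7.77 CPM at P10 against 4.697 CPM at P5, log2 0.72) were among the risers. The basal squamous regulator Trp63 had 0 counts over the KO P10 libraries and 1 over the KO P5 libraries.

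The lowest genes outside the mucus group were enzymes, lipid carriers and defence proteins. Enpp3, an ectonucleotidase of the cell surface, had 11.1, 13.1 and 11.6 CPM in the KO P10 libraries, against 64.8, 64.7 and 64.8 CPM in the KO P5 libraries (log2 -2.44 ± 0.063, adjusted p = 9.02e-91). C4bp, which encodes a plasma inhibitor of complement, had 21.8, 21.6 and 22.1 CPM in the KO P10 libraries, against 92.5, 94.4 and 95.8 CPM in the KO P5 libraries (log2 -2.11 ± 0.05, adjusted p = 1.15e-96). Apob, the apolipoprotein on which chylomicrons and very low density lipoproteins are built, had 81.2, 81.2 and 88.8 CPM in the KO P10 libraries, against 278, 269 and 279.6 CPM in the KO P5 libraries (log2 -1.71 ± 0.037, adjusted p = 3.6e-31). In all 3 genes every KO P10 library lay below every KO P5 library, which their choice required. The peroxisomal beta-oxidation enzyme Ehhadh averaged 5.91 ± 0.7 CPM at P10 against 18.8 ± 0.52 CPM at P5 (log2 -1.67 ± 0.11). The glucuronosyltransferase Ugt2b35, of a family whose reads can be shared, averaged 8.13 ± 0.52 CPM at P10 against 23.5 ± 1.9 CPM at P5 (log2 -1.54 ± 0.093). The prostaglandin E synthase Ptges averaged 14.3 ± 1.8 CPM at P10 against 40.6 ± 1.7 CPM at P5 (log2 -1.51 ± 0.072).

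Mucosal defence genes fell more often than they rose: 3 of 19 tested rose and 10 fell [3 and 5] (median log2 -0.11). Dmbt1, a scavenger receptor that binds bacteria and mucins, averaged 36.7 ± 1.1 CPM at P10 against 109 ± 1 CPM at P5 (log2 -1.56 ± 0.048, adjusted p = 3.37e-78). The inducible nitric oxide synthase Nos2 averaged 19.3 ± 0.93 CPM at P10 against 49.6 ± 0.62 CPM at P5 (log2 -1.36 ± 0.069). Pigr, the receptor that carries immunoglobulin A across the epithelium, averaged 4622 ± 40 CPM at P10 against 5710 ± 54 CPM at P5 (log2 -0.305 ± 0.012). Apart from Clca1, the antimicrobial genes Reg3g (27.3 CPM at P10 against 16.2 CPM at P5, log2 0.74) and Lyz1 (7.77 CPM at P10 against 3.08 CPM at P5, log2 1.34) rose.

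Of NF-kB and inflammatory genes, 3 of 20 tested rose and 12 fell [3 and 5] (median log2 -0.13). The adhesion molecule Icam1 fell (44.8 CPM at P10 against 80.5 CPM at P5, log2 -0.85). The neutrophil chemokines Cxcl1 (51.3 CPM at P10 against 80.1 CPM at P5, log2 -0.65) and Cxcl5 (3385 CPM at P10 against 3734 CPM at P5, log2 -0.14†) fell, as did the NF-kB inhibitor Nfkbia (98.4 CPM at P10 against 119 CPM at P5, log2 -0.27). The alarmins Il33 (371 CPM at P10 against 239 CPM at P5, log2 0.64) and Il1a (99.6 CPM at P10 against 54.7 CPM at P5, log2 0.87) rose. In WT organoids 12 of the 20 rose and 2 fell, against 18.5% of all genes tested called there in either direction. In the interaction, which called 20.1% of all genes, 3 had a higher and 15 a lower change in KO organoids.

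Of antigen presentation genes, 0 of 13 tested rose and 3 fell [0 and 1] (median log2 -0.19). The class I heavy chains H2-K1 (286 CPM at P10 against 360.0 CPM at P5, log2 -0.33) and H2-D1 (350.3 CPM at P10 against 399.6 CPM at P5, log2 -0.19†), which are similar in sequence, were among them. Higher members numbered 0 at an unadjusted p under 0.05 and 0 by DESeq2, and 5 members fell without the first or without the third KO P5 library. Of interferon response genes, 2 of 20 tested rose and 2 fell [1 and 0] (median log2 -0.072), a share near the background. The number of higher genes was 1 without the first or the second KO P10 or the second KO P5 library, and that of lower genes 1 without any 1 of the KO P10 libraries or the third KO P5 library. Of arachidonate enzymes, 4 of 14 tested rose and 3 fell [2 and 1] (median log2 0.0011). The cyclooxygenases Ptgs2 (28.5 CPM at P10 against 19.9 CPM at P5, log2 0.52) and Ptgs1 (6.495 CPM at P10 against 3.79 CPM at P5, log2 0.77) rose, opposite to Ptges.

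**Figure D2:**
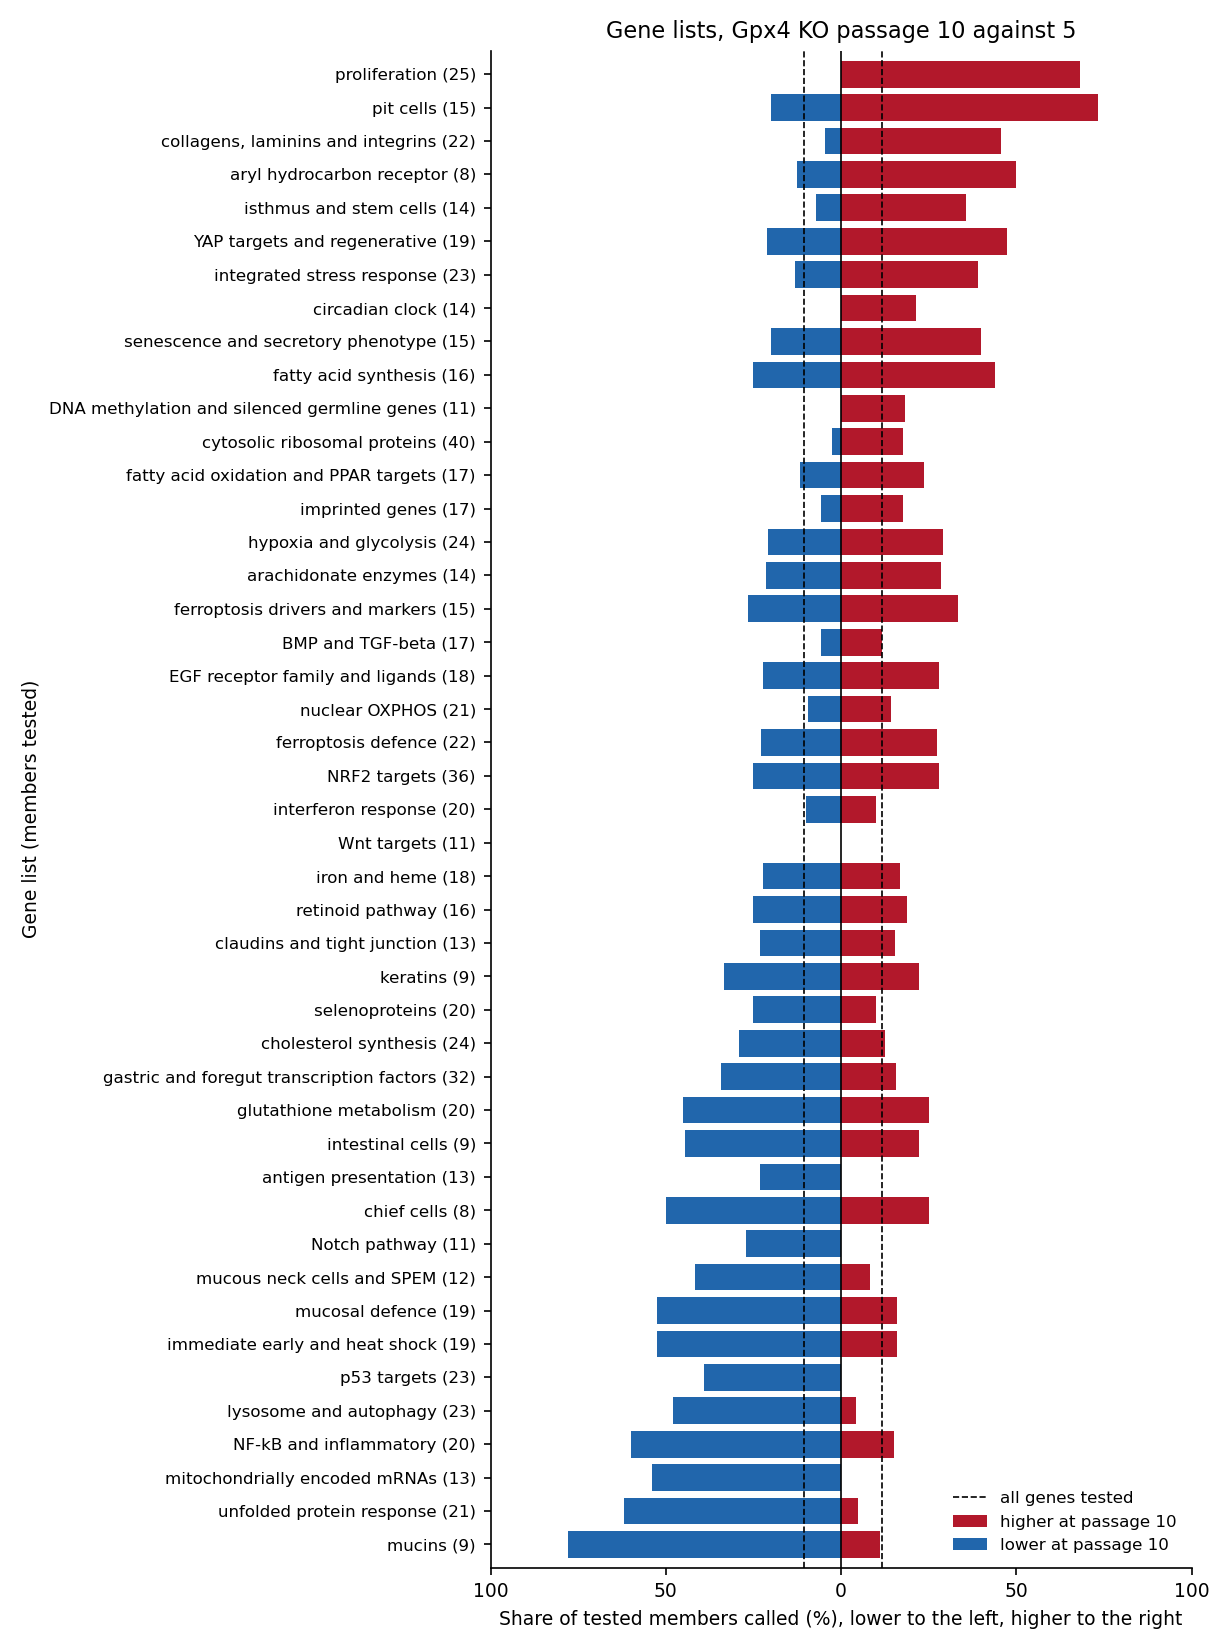
Share of tested members of each gene list that were called higher (right, red) or lower (left, blue) at passage 10 against 5 in Gpx4 KO organoids, for the lists with at least 8 members tested, whose number stands in brackets. Dashed lines mark the shares of all genes tested, 11.7% higher and 10.5% lower; mucins and unfolded protein response genes reach farthest to the left, pit cell and proliferation genes farthest to the right.

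Several regulators of the foregut and gastric epithelium fell as well. Of the list of transcription factors, which held 42 genes, 5 of 32 tested rose and 11 fell [3 and 6] (median log2 -0.025). Pitx1, a homeobox factor of the hindlimb and other tissues, had 10.9, 14.7 and 11.7 CPM in the KO P10 libraries, against 25.9, 27.2 and 28.2 CPM in the KO P5 libraries (log2 -1.13 ± 0.088, adjusted p = 6.63e-26). The groups did not overlap. WT organoids had 1 count of it over the passage 10 libraries and 3 over the passage 5 libraries, and Mist1- organoids had 2043. The 3 Iroquois factors of the list that were tested fell. Irx2 averaged 2.303 ± 0.15 CPM at P10 against 7.59 ± 0.61 CPM at P5 (log2 -1.71 ± 0.18). Irx3 averaged 0.994 ± 0.33 CPM at P10 against 2.44 ± 0.5 CPM at P5 (log2 -1.27 ± 0.31), and Irx5 6.39 ± 0.49 CPM at P10 against 13.6 ± 0.57 CPM at P5 (log2 -1.09 ± 0.12). The endoderm regulator Gata6 fell too (22.1 ± 1.7 CPM at P10 against 35.8 ± 0.31 CPM at P5, log2 -0.69 ± 0.067), and its relative Gata4 rose (89.4 ± 2.4 CPM at P10 against 75.8 ± 2.2 CPM at P5, log2 0.24 ± 0.042). Spdef, which drives the maturation of mucus-secreting cells, fell (19.5 ± 1.6 CPM at P10 against 28.5 ± 0.67 CPM at P5, log2 -0.54 ± 0.075). The forkhead factor Foxa2 rose (10.6 ± 0.56 CPM at P10 against 5.31 ± 0.63 CPM at P5, log2 1.004 ± 0.13). Sox2, which marks foregut progenitors, did not pass the test (20.6 CPM at P10 against 22.1 CPM at P5, adjusted p = 0.393).

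A smaller set of genes was close to absent at 1 passage and present at the other. Cyp1a1 and Ppp1r3a were named by rule because they had 0 counts at a passage, and the 9 others, with changes of 16-fold or more, were picked out after their values were seen. Cyp1a1, the xenobiotic-oxidising enzyme that the aryl hydrocarbon receptor induces, had 0.703, 1.91 and 2.03 CPM in the KO P10 libraries, against 0, 0 and 0 CPM in the KO P5 libraries. With 75 counts over the KO P10 libraries and 0 over the KO P5 libraries, it was at least 28.1-fold higher, taking 3 counts over the KO P5 group as the floor (adjusted p = 1.01e-11). All KO P10 libraries held it and none of the KO P5 libraries did. The difference between its KO and WT passage changes did not pass the interaction test. Cyp1b1, a second target of that receptor, had 9.34, 9.07 and 6.74 CPM in the KO P10 libraries, against 0, 0.261 and 0.0602 CPM in the KO P5 libraries (log2 6.14 ± 0.37, adjusted p = 2.35e-36). At passage 15 both genes had 0 counts in the KO libraries. The receptor itself, Ahr, did not pass the test (45.5 CPM at P10 against 45.5 CPM at P5, adjusted p = 0.959), nor did its target Tiparp (22.5 CPM at P10 against 23.1 CPM at P5, adjusted p = 0.799). Its repressor Ahrr had 26 counts over the KO P10 libraries and 2 over the KO P5 libraries and did not pass the filter on low counts. Of the receptor's list, 4 of 8 tested rose and 1 fell [4 and 0] (median log2 0.24), including the quinone reductase Nqo1 (17.3 CPM at P10 against 12.9 CPM at P5, log2 0.41), while Aldh3a1 fell.

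Because both Cyp1 genes were higher at passage 10, their promoters are shown, 250 bases before to 50 bases after the start, from RefSeq on GRCm38.p6 (Cyp1a1 at chr9:57697363-57697662, plus strand; Cyp1b1 at chr17:79715012-79715311, minus strand). Capitals mark the receptor's core motif GCGTG, searched on both strands, where CACGC is its reverse complement.
Cyp1a1: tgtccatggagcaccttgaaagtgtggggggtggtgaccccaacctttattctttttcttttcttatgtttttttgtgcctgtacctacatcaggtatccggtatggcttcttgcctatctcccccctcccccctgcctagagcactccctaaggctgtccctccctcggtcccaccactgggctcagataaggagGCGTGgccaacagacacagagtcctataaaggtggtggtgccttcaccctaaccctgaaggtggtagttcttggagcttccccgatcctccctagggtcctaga
Cyp1b1: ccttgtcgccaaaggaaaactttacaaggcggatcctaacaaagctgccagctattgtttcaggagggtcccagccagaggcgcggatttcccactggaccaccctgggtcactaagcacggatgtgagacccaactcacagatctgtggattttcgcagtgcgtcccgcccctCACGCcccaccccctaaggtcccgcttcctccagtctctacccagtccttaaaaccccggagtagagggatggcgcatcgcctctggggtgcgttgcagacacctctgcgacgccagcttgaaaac
Each window held the core once. It is a common motif, found in 9500 of 27025 promoters of this length (35.2%). On the receptor's list 5 of 8 promoters held it, those of Ahrr, Arnt and Tiparp besides these. So did 15 of 19 promoters (78.9%) of the unfolded protein response list described below.

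The kinase gene Rps6ka6 had 135 counts over the KO P10 libraries, against 1 over the KO P5 libraries (ratio 152, 95% counting interval 26.8 to 6032). The transcription factor Runx3 had 68 counts over the KO P10 libraries, against 2 over the KO P5 libraries (ratio 38.2, interval 10.2 to 322). The homeobox gene Msx1 had 32 counts over the KO P10 libraries, against 1 over the KO P5 libraries (ratio 35.9, interval 6.003 to 1463). The zinc finger gene Zfp268 had 151 counts over the KO P10 libraries, against 10 over the KO P5 libraries (log2 4.02 ± 0.44, adjusted p = 2.26e-15). The heparan sulfate sulfotransferase Hs6st2 had 95 counts over the KO P10 libraries, against 6 over the KO P5 libraries (log2 4.07 ± 0.52, adjusted p = 8.58e-12). All of these were present in every KO P10 library. In the other direction, Pdpn, the membrane glycoprotein podoplanin, had 0.256, 0 and 0.0548 CPM in the KO P10 libraries, against 9.16, 8.77 and 6.98 CPM in the KO P5 libraries (log2 -6.22 ± 0.38, adjusted p = 3.84e-36). The coagulation factor gene F5 had 3 counts over the KO P10 libraries, against 152 over the KO P5 libraries (ratio of P5 over P10 45.1, interval 15.2 to 221). The membrane protein gene Tmem154 had 1 count over the KO P10 libraries, against 63 over the KO P5 libraries (ratio of P5 over P10 56.1, interval 9.71 to 2250). Ppp1r3a, the glycogen-targeting subunit of a protein phosphatase, had 0 counts over the KO P10 libraries and 7 over the KO P5 libraries. It was at least 2.08-fold lower against the same floor (adjusted p = 0.0282†). The call was lost without any 1 of the KO P10 libraries (adjusted p = 0.0658 to 0.0839), without the second KO P5 library (0.0647) and without the third (0.0709). Intervals and floors cover counting error only. Leaving out 1 library moved the fold change of 7 of these genes by more than 1.5 times without changing its sign or call. The log2 value of Pdpn was -7.77 without the first KO P10 library, that of Tmem154 -7.29 without the third, and that of F5 -6.21 and -4.71 without the first or the third. Without the second KO P5 library that of Hs6st2 was 5.77, of Rps6ka6 8.54 and of Cyp1b1 7.84, and without the first KO P5 library that of Msx1 was 6.49.

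Many genes of the unfolded protein response fell by small steps. Of this list, 1 of 21 tested rose and 13 fell [0 and 2] (median log2 -0.09). They encode mainly chaperones and folding enzymes that are induced when the endoplasmic reticulum is loaded. Dnajb9, a cochaperone of BiP, averaged 48.8 ± 1.7 CPM at P10 against 64.9 ± 0.81 CPM at P5 (log2 -0.41 ± 0.049, adjusted p = 2.15e-13). Xbp1, a transcription factor of this response, averaged 350.5 ± 6.2 CPM at P10 against 416 ± 6.8 CPM at P5 (log2 -0.25 ± 0.022, adjusted p = 6.35e-21). The disulfide isomerases Pdia3 (957 CPM at P10 against 1040 CPM at P5, log2 -0.12†) and Pdia6 (337 CPM at P10 against 375 CPM at P5, log2 -0.15†) fell by smaller steps. So did BiP itself, Hspa5 (1713 CPM at P10 against 1805 CPM at P5, log2 -0.075†). The translocon-associated gene Ssr1 rose (420.3 CPM at P10 against 380.1 CPM at P5, log2 0.15†), and Manf did not pass the test (213 CPM at P10 against 212 CPM at P5, adjusted p = 0.868). In WT organoids the same list had 12 genes higher and 0 lower at passage 10, against 18.5% of all genes tested called there. In the interaction of genotype and passage, which called 20.1% of all genes, 15 of the 21 had a lower change in KO organoids and 0 a higher one.

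**Figure D3:**
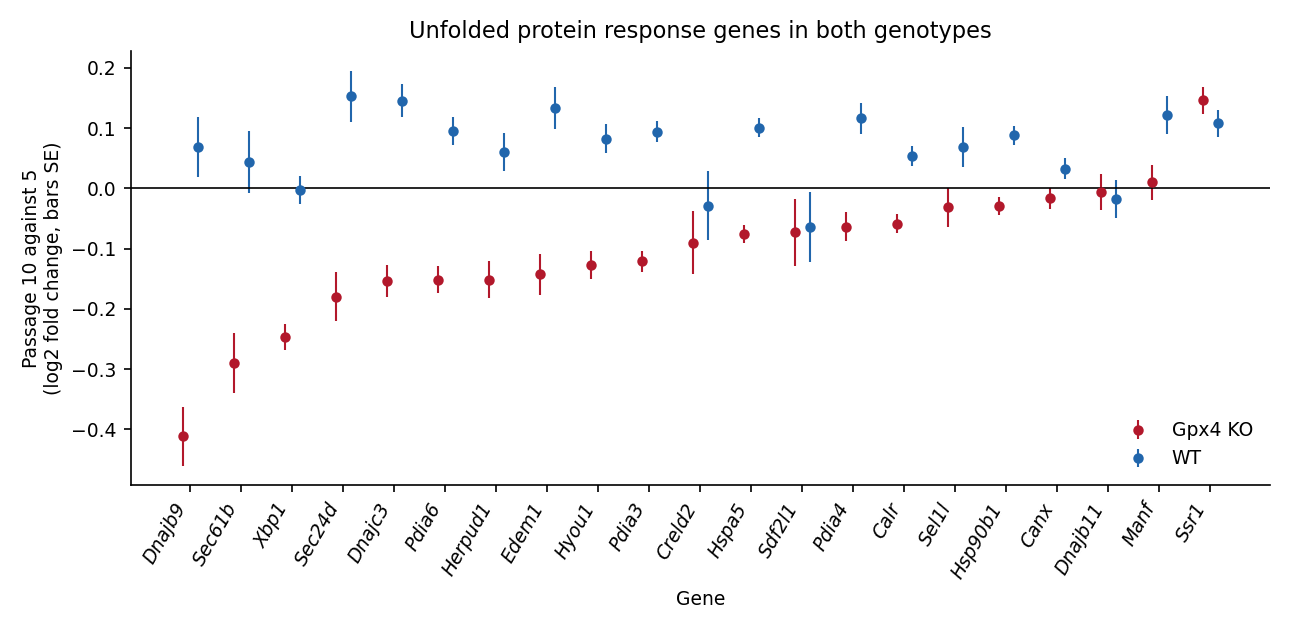
Log2 fold change of passage 10 against 5 for the 21 unfolded protein response genes in Gpx4 KO (red) and WT organoids (blue), ordered by the KO value, with bars for the SE. The KO values run from -0.41 to 0.15, and the WT values lie above them for most genes.

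The classical stress element of these promoters, the pair CCAAT and CCACG with 9 bases between them, was searched on both strands in the same RefSeq windows. It was present in 7 of the 19 list promoters in the table (36.8%) and in 37 of all 27025 (0.137%). The sites are shown with 20 bases on each side and both parts in capitals. On GRCm38.p6 they lie for Hspa5 at chr2:34772005-34772063, plus strand, for Hsp90b1 at chr10:86705618-86705676, minus strand and for Calr at chr8:84847055-84847113, plus strand. The others are Canx (chr11:50325780-50325838, minus strand), Pdia6 (chr12:17266471-17266529, plus strand), Dnajc3 (chr14:118937807-118937865, plus strand) and Creld2 (chr15:88819500-88819558, minus strand).
Hspa5: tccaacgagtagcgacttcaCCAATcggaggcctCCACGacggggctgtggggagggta
Hsp90b1: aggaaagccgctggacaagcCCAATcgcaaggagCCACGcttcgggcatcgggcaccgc
Calr: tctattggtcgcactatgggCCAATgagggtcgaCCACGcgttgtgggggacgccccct
Canx: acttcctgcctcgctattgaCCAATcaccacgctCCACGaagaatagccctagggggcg
Pdia6: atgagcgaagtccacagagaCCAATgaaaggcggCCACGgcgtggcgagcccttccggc
Dnajc3: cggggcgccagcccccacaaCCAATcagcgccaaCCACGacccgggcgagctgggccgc
Creld2: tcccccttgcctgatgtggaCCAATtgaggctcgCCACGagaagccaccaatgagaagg
Of these 7 genes, Hspa5, Pdia6, the calcium-binding chaperone Calr (1261 CPM at P10 against 1314 CPM at P5, log2 -0.058†) and Dnajc3 (205 CPM at P10 against 228 CPM at P5, log2 -0.15†) fell. Hsp90b1 (1839 CPM at P10 against 1876 CPM at P5, adjusted p = 0.175), Canx (867 CPM at P10 against 877 CPM at P5, adjusted p = 0.562) and Creld2 (49.1 CPM at P10 against 52.3 CPM at P5, adjusted p = 0.234) did not pass the test. Among all 18 tested genes with the element, 5 fell (27.8%) and 0 rose, against 10.5% lower and 11.7% higher of all genes tested. The 18 include these 7 genes, and Hspa5, Pdia6, Calr and Dnajc3 are among the 5 that fell. Of these 7 genes, only Pdia6 belongs to the genes named by rule; the others are shown because they carry the element, chosen after their values were seen.

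Of lysosome and autophagy genes, 1 of 23 tested rose and 11 fell [0 and 4] (median log2 -0.100). The cathepsins Ctsl (229 CPM at P10 against 290.4 CPM at P5, log2 -0.34) and Ctsd (458 CPM at P10 against 521 CPM at P5, log2 -0.19†) fell. So did the autophagy receptor Sqstm1 (109 CPM at P10 against 128 CPM at P5, log2 -0.23) and the proton pump subunit Atp6v0d2 (13.2 CPM at P10 against 18.3 CPM at P5, log2 -0.48). The cholesterol carrier Npc2 rose (124 CPM at P10 against 113 CPM at P5, log2 0.13†), a call lost without the first KO P10 library (log2 0.085, adjusted p = 0.114), while 2 genes of the list rose without the first KO P5 library.

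Among the glutathione peroxidases, relatives of Gpx4 changed in both directions. Of this family, 2 of 6 tested rose and 2 fell [1 and 1] (median log2 0.029). Gpx8, a peroxidase of the endoplasmic reticulum, had 9.34, 9.85 and 9.04 CPM in the KO P10 libraries, against 1.99, 1.77 and 2.35 CPM in the KO P5 libraries (log2 2.21 ± 0.18, adjusted p = 5.1e-24). All KO P10 libraries were far above the KO P5 libraries. The secreted Gpx3 had 0.639, 0.425 and 0.603 CPM in the KO P10 libraries, against 2.15, 2.25 and 2.71 CPM in the KO P5 libraries (log2 -2.06 ± 0.34, adjusted p = 9.52e-08), and its groups did not overlap either. Gpx2, the gastrointestinal form, averaged 545 ± 6.6 CPM at P10 against 638 ± 1.3 CPM at P5 (log2 -0.23 ± 0.019, adjusted p = 7.49e-24†). Per length its level was 176 FPKM at KO P10 and 206 FPKM at KO P5. Gpx1 rose slightly (80.97 CPM at P10 against 74.4 CPM at P5, log2 0.12†), a call lost without the first KO P10 library (log2 0.095, adjusted p = 0.153), the second KO P5 library (log2 0.1004, adjusted p = 0.139) or the third (log2 0.12, adjusted p = 0.0580). The level of Gpx4 per length was 56.3 FPKM at KO P10 and 58.8 FPKM at KO P5, below that of Gpx2 at both passages.

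Genes that defend against ferroptosis moved in both directions. Of this list, 6 of 22 tested rose and 5 fell [3 and 0] (median log2 -0.0034). The acyltransferases Mboat1 (410.1 CPM at P10 against 351 CPM at P5, log2 0.22) and Mboat2 (24.7 CPM at P10 against 14.8 CPM at P5, log2 0.74) rose, as did the ferritin heavy chain Fth1 (789 CPM at P10 against 614 CPM at P5, log2 0.36†). The peroxiredoxin Prdx6 (409 CPM at P10 against 472 CPM at P5, log2 -0.204†) and the desaturase Scd1 (155 CPM at P10 against 178 CPM at P5, log2 -0.198†) fell. Of ferroptosis drivers and markers, 5 of 15 tested rose and 4 fell [3 and 1] (median log2 0.00067), with 3 higher genes without the first KO P10 library or the first KO P5 library. The transferrin receptor Tfrc rose (320.3 ± 8.5 CPM at P10 against 237 ± 6.9 CPM at P5, log2 0.44 ± 0.026). Ncoa4, the receptor for ferritin breakdown, fell (139 ± 5.4 CPM at P10 against 164 ± 2.4 CPM at P5, log2 -0.24 ± 0.03†).

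For iron and heme genes, 3 of 18 tested rose and 4 fell [2 and 1] (median log2 -0.034), with the metalloreductase Steap4 falling the most (29.7 ± 0.88 CPM at P10 against 58.7 ± 2.5 CPM at P5, log2 -0.98 ± 0.055). For targets of NRF2, the regulator of the oxidative stress response, 10 of 36 tested rose and 9 fell [4 and 2] (median log2 -0.0035). The glutathione transferase Gstp1 rose (399 ± 32 CPM at P10 against 234 ± 8.5 CPM at P5, log2 0.78 ± 0.063), and the epoxide hydrolase Ephx1 fell (261 ± 9.6 CPM at P10 against 308 ± 4.9 CPM at P5, log2 -0.24 ± 0.024†). Of glutathione metabolism genes, 5 of 20 tested rose and 9 fell [2 and 5] (median log2 -0.053), and of selenoproteins, 2 of 20 tested rose and 5 fell [0 and 2] (median log2 -0.064). The plasma selenium carrier Selenop averaged 131 ± 5.3 CPM at P10 against 226 ± 9.2 CPM at P5 (log2 -0.79 ± 0.03). The 2 selenoproteins that rose, Gpx1 and the oxidoreductase-like Selenot, were not called without the first KO P10 library, or without the second or the third KO P5 library, and 1 of them was called without the second KO P10 or the first KO P5 library.

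Cell cycle genes were slightly higher. Of the proliferation genes, 17 of 25 tested rose and 0 fell [5 and 0] (median log2 0.15). Lower ones numbered 0 at an unadjusted p under 0.05 and 0 by DESeq2. The mitotic cyclin Ccnb1 averaged 154 ± 6.1 CPM at P10 against 124 ± 0.3 CPM at P5 (log2 0.31 ± 0.035, adjusted p = 1.14e-14). Top2a, the topoisomerase of dividing cells, averaged 804 ± 12 CPM at P10 against 684 ± 1.1 CPM at P5 (log2 0.23 ± 0.018†), and the proliferation antigen Mki67 823 ± 40 CPM at P10 against 727 ± 19 CPM at P5 (log2 0.18 ± 0.021†). The thymidylate synthase gene Tyms did not pass the test (90.9 CPM at P10 against 95.7 CPM at P5, adjusted p = 0.194). Summed over the list, these genes held 4563 to 4646 CPM at KO P10 and 4089 to 4153 CPM at KO P5. Targets of p53 went the other way: 0 of 23 tested rose and 9 fell [0 and 3] (median log2 -0.101). Higher members numbered 1 at an unadjusted p under 0.05 and 0 by DESeq2, and 1 without the third KO P10 library. The receptor gene Eda2r averaged 44.1 ± 1.5 CPM at P10 against 69.3 ± 2.9 CPM at P5 (log2 -0.65 ± 0.047, adjusted p = 7.94e-29). The cell cycle inhibitor Cdkn1a averaged 69.04 ± 3.3 CPM at P10 against 91.97 ± 2.9 CPM at P5 (log2 -0.41 ± 0.041), and Trp53inp1 94.02 ± 3.3 CPM at P10 against 124 ± 5 CPM at P5 (log2 -0.402 ± 0.035†). In WT organoids 17 of the 23 p53 targets were lower and 0 higher at passage 10. Of the 25 cell cycle genes, 9 were higher and 0 lower there, against 18.5% of all genes called in either direction.

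Of integrated stress response genes, 9 of 23 tested rose and 3 fell [7 and 1] (median log2 0.13). The enzymes Psat1 of serine synthesis (458 CPM at P10 against 334 CPM at P5, log2 0.46) and Aldh18a1 of proline synthesis (124 CPM at P10 against 91.1 CPM at P5, log2 0.44) rose. Asparagine synthetase, Asns, rose as well (179 CPM at P10 against 155 CPM at P5, log2 0.21†). The transcription factor Atf3 fell (48.6 CPM at P10 against 60.4 CPM at P5, log2 -0.31). Of immediate early and heat shock genes, 3 of 19 tested rose and 10 fell (median log2 -0.15). The transcription factors Fos (419 CPM at P10 against 534 CPM at P5, log2 -0.35) and Egr1 (480.3 CPM at P10 against 576 CPM at P5, log2 -0.26) fell. The inducible Hsp70 genes Hspa1b (47.5 CPM at P10 against 71.9 CPM at P5, log2 -0.599) and Hspa1a (1.71 CPM at P10 against 5.45 CPM at P5, log2 -1.65) fell. This Hsp70 pair is nearly identical in sequence, so reads may be divided between them. The chaperone Hsp90aa1 rose (1285 CPM at P10 against 1114 CPM at P5, log2 0.21). In the senescence list, 6 of 15 tested rose and 3 fell (median log2 0.051). The urokinase receptor Plaur (250.3 CPM at P10 against 206 CPM at P5, log2 0.29) and the EGF receptor ligand Areg (29.6 CPM at P10 against 21.6 CPM at P5, log2 0.46) rose, opposite to Cdkn1a and Cxcl1.

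Of collagens, laminins and integrins, 10 of 22 tested rose and 1 fell [4 and 0] (median log2 0.16). The basement membrane collagen Col18a1 averaged 190.1 ± 4 CPM at P10 against 141 ± 5.8 CPM at P5 (log2 0.43 ± 0.029, adjusted p = 7.9e-31). The laminin receptor subunit Itga3 (257 CPM at P10 against 216 CPM at P5, log2 0.25) and the laminin Lama5 (488 CPM at P10 against 438 CPM at P5, log2 0.15†) rose as well. Fibronectin, Fn1, rose at a low level (9.26 ± 1.9 CPM at P10 against 2.64 ± 0.54 CPM at P5, log2 1.82 ± 0.18). Vim, a mesenchymal filament gene and the 1 tested member of the fibroblast list, rose too (1.41 CPM at P10 against 0.688 CPM at P5, log2 1.02†). That call was lost without the first KO P10 library (log2 0.88, adjusted p = 0.140), without the second (1.01, adjusted p = 0.0694), without the second KO P5 library (0.897, adjusted p = 0.126) and without the third (0.993, adjusted p = 0.0805). Of YAP targets and regenerative genes, 9 of 19 tested rose and 4 fell [5 and 2] (median log2 0.083). The matricellular gene Ccn2 rose (178 ± 4.5 CPM at P10 against 118 ± 2.7 CPM at P5, log2 0.602 ± 0.033). Its relative Ccn1 (82.9 ± 0.62 CPM at P10 against 104 ± 5.3 CPM at P5, log2 -0.32 ± 0.041) and the stem cell antigen Ly6a (429.9 ± 18 CPM at P10 against 627 ± 19 CPM at P5, log2 -0.55 ± 0.031) fell. Keratins changed by small amounts: 2 of 9 tested rose and 3 fell [0 and 0] (median log2 0.081). Of claudins and tight junction genes, 2 of 13 tested rose and 3 fell [1 and 0] (median log2 0.0061). The scaffold Tjp1 fell (608 CPM at P10 against 675 CPM at P5, log2 -0.15†).

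Of 11 Wnt targets tested, 0 rose and 0 fell by edgeR's test (median log2 -0.077). Higher ones numbered 1 at an unadjusted p under 0.05 and 0 by DESeq2, and lower ones 4 at an unadjusted p under 0.05 and 0 by DESeq2. The number that fell was 2 without the first KO P5 library and 1 without the third KO P10 or the third KO P5 library, and 1 rose without the second KO P10 library. The feedback gene Axin2 had 12.7 CPM at P10 against 13.4 CPM at P5, adjusted p = 0.645. In WT organoids 0 of the 11 rose and 10 fell, against 18.5% of all genes called there in either direction. In the interaction, which called 20.1% of all genes, 7 had a higher and 0 a lower change in KO organoids. Of Notch pathway genes, 0 of 11 tested rose and 3 fell [0 and 1] (median log2 -0.12), among them the ubiquitin ligase Dtx1 (5.02 CPM at P10 against 10.1 CPM at P5, log2 -1.01). The number that fell was 1 without the first KO P5 library, and higher ones numbered 1 at an unadjusted p under 0.05 and 0 by DESeq2. Of hedgehog genes, 2 of 6 tested rose and 1 fell (median log2 0.24). The ligand Ihh fell (4.56 CPM at P10 against 7.08 CPM at P5, log2 -0.63) and the inhibitor Sufu rose (24.2 CPM at P10 against 17.9 CPM at P5, log2 0.43). Of BMP and TGF-beta genes, 2 of 17 tested rose and 1 fell [1 and 1] (median log2 0.014), and the receptor Tgfbr2 rose (394 CPM at P10 against 338 CPM at P5, log2 0.22). DESeq2 called 1 of these genes higher, as did the fits without the first or the third KO P10 library or the first or the third KO P5 library. The number of lower genes was 2 without the first or the second KO P10 library. For EGF receptor ligands and feedback genes, 5 of 18 tested rose and 4 fell [1 and 1] (median log2 -0.055), with 3 higher without the second KO P10, the second KO P5 or the third KO P5 library. In the retinoid pathway, 3 of 16 tested rose and 4 fell (median log2 -0.046). Rdh10, which makes retinal (412 CPM at P10 against 313 CPM at P5, log2 0.39), and Aldh1a1, which makes retinoic acid (109.5 CPM at P10 against 71.3 CPM at P5, log2 0.62), rose. The related enzymes Aldh1a3, Aldh1a7 and Dhrs9 did not pass the test. Stra6 was among the members that fell (log2 -0.68 in the fit of all 21 libraries), and the lowest log2 value of the list was -1.12.

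Of transcripts encoded in the mitochondrial genome, 0 of 13 tested rose and 7 fell [0 and 3] (median log2 -0.19). Higher ones numbered 0 at an unadjusted p under 0.05 and 0 by DESeq2. The cytochrome b gene mt-Cytb averaged 6346 ± 119 CPM at P10 against 7713 ± 365 CPM at P5 (log2 -0.28 ± 0.026). Mitochondrial genes took 3.94% to 3.99% of the counts of the KO P10 libraries and 4.26% to 4.57% of the KO P5 libraries, and the part of this share in the result was not tested. Of nuclear genes for oxidative phosphorylation, 3 of 21 tested rose and 2 fell [1 and 0] (median log2 -0.03). The number of lower genes was 4 without the first KO P10 library, 1 without the second and 0 by DESeq2 and without the third KO P10, the second KO P5 or the third KO P5 library. Of glycolysis and hypoxia genes, 7 of 24 tested rose and 5 fell [1 and 1] (median log2 0.017). The glycolytic mutase Pgam1 rose (388 CPM at P10 against 294 CPM at P5, log2 0.402) and the growth factor Vegfa fell (104 CPM at P10 against 116 CPM at P5, log2 -0.17†).

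For fatty acid synthesis, 7 of 16 tested rose and 4 fell [3 and 0] (median log2 0.048), and the desaturase Scd2 rose (4553 CPM at P10 against 4007 CPM at P5, log2 0.18†). For fatty acid oxidation, 4 of 17 tested rose and 2 fell [3 and 1] (median log2 0.0034), with 1 lower gene without the third KO P10 library. The nuclear receptor Pparg rose (38.8 ± 1.1 CPM at P10 against 20.6 ± 1 CPM at P5, log2 0.91 ± 0.065). The carnitine shuttle genes Cpt1a (56.3 CPM at P10 against 43.3 CPM at P5, log2 0.38) and Slc25a20 (10.1 CPM at P10 against 7.13 CPM at P5, log2 0.49) rose, opposite to Ehhadh. For cholesterol synthesis, 3 of 24 tested rose and 7 fell [0 and 1] (median log2 -0.038), with 1 higher gene without the first KO P10 library. Of ribosomal protein genes, 7 of 40 tested rose and 1 fell [0 and 0] (median log2 0.021). The number of higher genes was 3 without the first KO P10 or the third KO P5 library, 4 without the second KO P10 library and 13 without the third KO P10 library. The number of lower genes was 5 without the first KO P10 library, 2 without the first KO P5 library, and 0 by DESeq2 and without the third KO P10, the second KO P5 or the third KO P5 library.

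Of imprinted genes, 3 of 17 tested rose and 1 fell [1 and 0] (median log2 0.014). The splicing factor gene Snrpn, whose exons overlap Snurf, averaged 9.49 ± 0.17 CPM at P10 against 3.37 ± 0.61 CPM at P5 (log2 1.48 ± 0.15, adjusted p = 7.03e-18). Peg3 rose too (16.3 CPM at P10 against 10.9 CPM at P5, log2 0.58†), and the zinc finger gene Plagl1 fell (18.8 CPM at P10 against 28.6 CPM at P5, log2 -0.59†). Of DNA methylation and germline genes, 2 of 11 tested rose and 0 fell [0 and 0] (median log2 -0.082). Lower ones numbered 2 at an unadjusted p under 0.05 and 0 by DESeq2, and 1 without the third KO P10 or the third KO P5 library. The risers were the maintenance pair Dnmt1 (194 CPM at P10 against 174 CPM at P5, log2 0.15†) and Uhrf1 (119.8 CPM at P10 against 107 CPM at P5, log2 0.17†). Of circadian clock genes, 3 of 14 tested rose and 0 fell [0 and 0] (median log2 0.0089). Lower ones numbered 2 at an unadjusted p under 0.05 and 0 by DESeq2. The repressor Nr1d2 was among the risers (35.6 CPM at P10 against 30.5 CPM at P5, log2 0.22†). The number of higher genes was 1 without the second KO P5 library, and that of lower genes 2 without the second KO P10 or the third KO P5 library.

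Levels at passage 15 continued the passage 10 change for some genes and lay near the passage 5 level for others. These values share the passage 10 and 5 libraries with the comparison above and are given as levels only. Muc5ac stood at 56.8, 187 and 652 CPM at passages 5, 10 and 15. Clca1 stood at 243, 778 and 2829 CPM at passages 5, 10 and 15, and Gkn1 at 158, 348 and 778 CPM at passages 5, 10 and 15. All 3 were higher at each later passage. Muc5b, by contrast, stood at 136, 8.51 and 104 CPM at passages 5, 10 and 15, and Tff2 at 96.1, 27.1 and 95.04 CPM at passages 5, 10 and 15. Apob stood at 275, 83.7 and 375 CPM at passages 5, 10 and 15, and Pitx1 at 27.1, 12.4 and 28.1 CPM at passages 5, 10 and 15. All 4 had every passage 10 library below those of both other passages. Olfm4 stood at 144, 28.6 and 0.702 CPM at passages 5, 10 and 15, lower at each later passage. Cyp1b1 stood at 0.107, 8.38 and 0 CPM at passages 5, 10 and 15 and Zfp268 at 0.182, 3.101 and 0.135 CPM at passages 5, 10 and 15, both highest at passage 10. Gpx8 was also highest at passage 10, with 2.04, 9.41 and 3.396 CPM at passages 5, 10 and 15. Pdpn stood at 8.304, 0.103 and 0.218 CPM at passages 5, 10 and 15, low at both later passages.

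**Figure D4:**
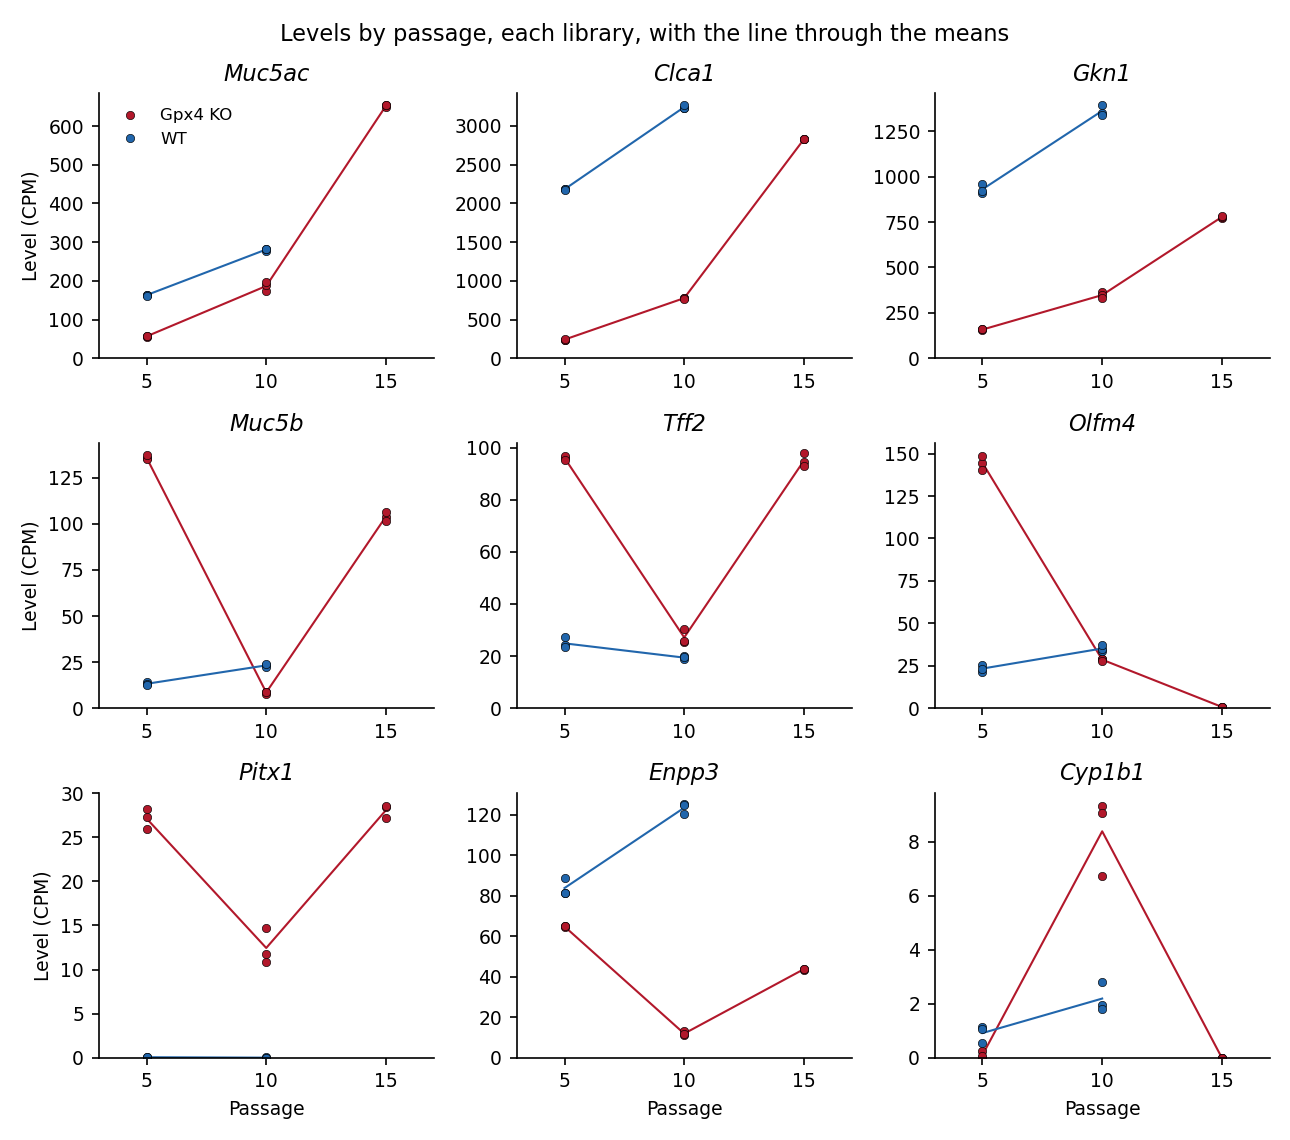
Level in CPM of 9 genes by passage, with 1 point per library and lines through the means of 3 libraries, Gpx4 KO in red at passages 5, 10 and 15 and WT in blue at passages 5 and 10. Muc5ac, Clca1 and Gkn1 climb through passage 15 in KO organoids, Muc5b, Tff2 and Pitx1 have their lowest level at passage 10, and Cyp1b1 is highest in KO organoids at passage 10.

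Whether passage changed WT organoids in the same way was tested with the genotype by passage interaction. The KO and WT organoids came from different mice, so genotype cannot be told apart from organoid line in this test. Nor can passage be told apart from other differences between the harvests. Its p-values also measure only the spread between libraries of a group, which may be technical. In WT organoids 2766 genes were called (18.5% of those tested), and 3018 genes (20.1%) were called in the interaction, 1582 with a higher and 1436 with a lower change in KO organoids. The 2 passage comparisons share no library. Genes called in both numbered 600 in the same direction, 18.0% of the KO calls and 21.7% of the WT calls, and 586 in opposite directions, 17.6% and 21.2%. For 9163 genes the mean over the KO P10 and KO P5 libraries was at least 10 CPM. Across them the log2 fold changes in KO and WT organoids had a Pearson r of 0.0178, as a description across genes of 12 libraries.

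The interaction called 20.1% of all genes in either direction. Of the 15 pit cell genes tested, 7 had a higher and 5 a lower change in KO organoids by it. Muc5ac and the gastrokines Gkn1 and Gkn2 rose in both genotypes, with a larger rise in KO organoids. WT Muc5ac averaged 281 ± 2.9 CPM at P10 against 163 ± 1.1 CPM at P5, and the KO change exceeded the WT change by log2 0.94 ± 0.046, adjusted p = 2.27e-40. For Clca1 the WT means were 3244 CPM at P10 against 2183 CPM at P5 and the difference between the changes was 1.11 ± 0.023, adjusted p = 1.02e-105. For Psca the WT means were 258 CPM at P10 against 247 CPM at P5, a change that did not pass the test (adjusted p = 0.174), and the difference 1.04 ± 0.053, adjusted p = 2.93e-41. For Clca3a2 the difference did not pass the test (0.12 ± 0.086, adjusted p = 0.386). Vsig1 rose in both genotypes with a smaller rise in KO organoids (difference -0.12 ± 0.028, adjusted p = 0.000289), and for Tff1 the difference did not pass the test (-0.044 ± 0.057, adjusted p = 0.69). The changes of Mucl3, Aldh3a1, Sult1c2 and Cldn18 were lower in KO organoids as well. Of the 12 neck cell genes tested, 7 had a higher change in KO organoids, among them Aqp5, and 2, Tff2 and Olfm4, a lower one. Even at passage 10, Gkn1 stood at 348 CPM in KO organoids and 1362 CPM in WT organoids.

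Several genes that fell in KO organoids rose in WT organoids. WT Muc5b averaged 23.2 ± 0.99 CPM at P10 against 13.2 ± 0.84 CPM at P5, and the difference between the changes was log2 -4.805 ± 0.103, adjusted p = 2.77e-105. This was the lowest value of the protein-coding genes with a gene name that the interaction called, at a mean of at least 10 CPM over the 12 libraries. The aldo-keto reductase Akr1c14, of a family with similar members, averaged 4.26 CPM at P10 against 14.5 CPM at P5 in KO and 20.3 CPM at P10 against 7.72 CPM at P5 in WT organoids (difference -3.17 ± 0.16, adjusted p = 1.07e-44). Enpp3 averaged 123 CPM at P10 against 83.8 CPM at P5 in WT organoids (difference -3.002 ± 0.077, adjusted p = 8.01e-92), and Olfm4 35.1 CPM at P10 against 23.3 CPM at P5 (difference -2.94 ± 0.085, adjusted p = 6.52e-83). Nos2 averaged 12.9 CPM at P10 against 5.16 CPM at P5 in WT organoids (difference -2.69 ± 0.13, adjusted p = 9.17e-48), and Ugt2b35 30.4 CPM at P10 against 16.4 CPM at P5 (difference -2.43 ± 0.12, adjusted p = 2.62e-46). All of these fell in KO organoids. Apob did not pass the test in WT organoids (73.7 CPM at P10 against 72.9 CPM at P5, adjusted p = 0.824). Ptges fell in both genotypes, with 11.1 CPM at P10 against 35.4 CPM at P5 in WT organoids (difference 0.16 ± 0.11, adjusted p = 0.369).

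Among the named genes with a mean of at least 10 CPM over the 12 libraries, the highest interaction values came mostly from genes that fell in WT organoids. The glycosyltransferase Ggta1 averaged 29.4 CPM at P10 against 15.04 CPM at P5 in KO and 19.3 CPM at P10 against 44.4 CPM at P5 in WT organoids (difference 2.16 ± 0.11, adjusted p = 1.99e-46). The brush border protocadherin Cdhr2 averaged 26.2 CPM at P10 against 17.1 CPM at P5 in KO and 76.2 CPM at P10 against 211 CPM at P5 in WT organoids (difference 2.096 ± 0.082, adjusted p = 6.94e-62). The cornified envelope gene Cnfn did not pass the test in KO organoids (7.44 CPM at P10 against 8.03 CPM at P5, adjusted p = 0.567) and averaged 12.01 CPM at P10 against 49.2 CPM at P5 in WT organoids (difference 1.92 ± 0.16, adjusted p = 9.46e-24). The lipase family gene Lipo3 averaged 12.9 CPM at P10 against 7.67 CPM at P5 in KO and 8.87 CPM at P10 against 15.7 CPM at P5 in WT organoids (difference 1.56 ± 0.16, adjusted p = 2.14e-16). Hmga2 was the exception, with a rise in KO organoids and WT means of 15.1 CPM at P10 against 16.9 CPM at P5 that did not pass the test (adjusted p = 0.275). Its difference between the changes was 1.498 ± 0.13, adjusted p = 7.41e-21. Bhlha15 averaged 6.82 CPM at P10 against 5.49 CPM at P5 in WT organoids (adjusted p = 0.116), and its change differed between the genotypes (log2 -1.13 ± 0.19, adjusted p = 4.48e-07), whereas that of Gpx4 did not pass the test (0.082 ± 0.054, adjusted p = 0.336).

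**Figure D5:**
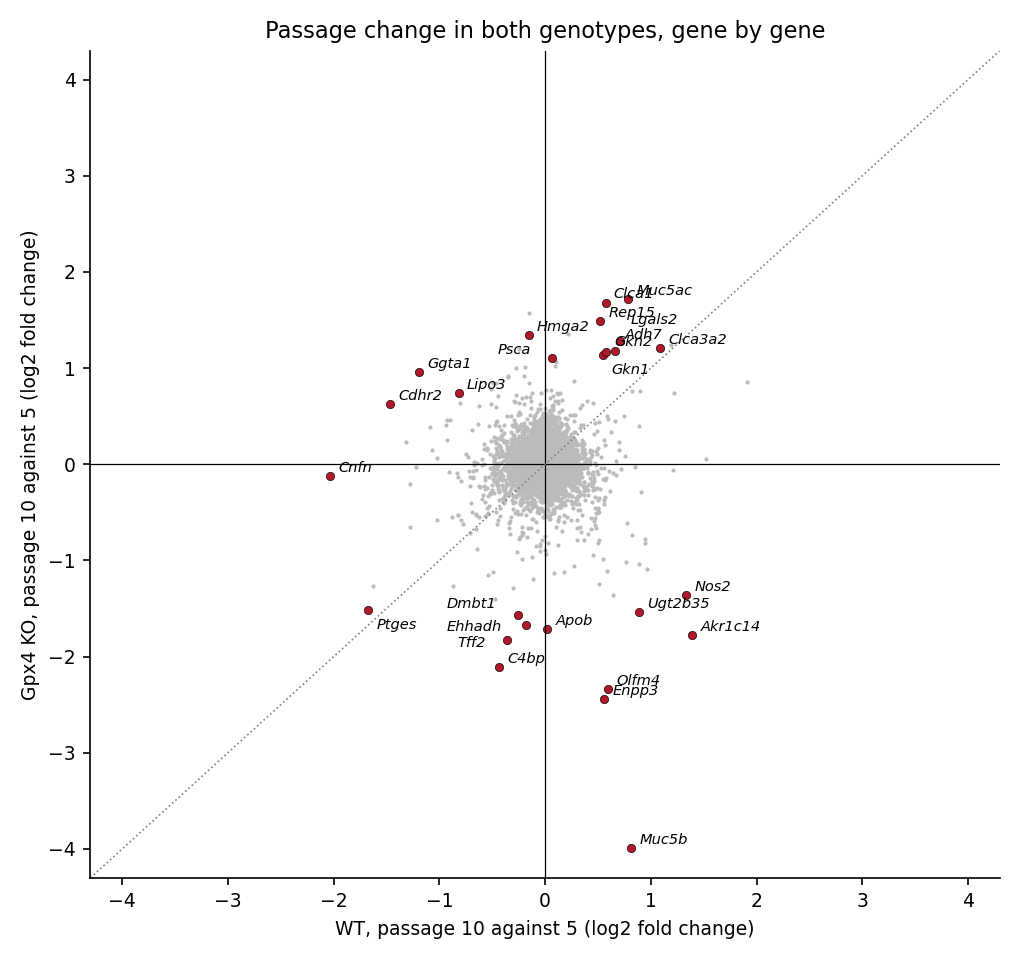
Log2 fold change of passage 10 against 5 in Gpx4 KO organoids (vertical axis) and in WT organoids (horizontal axis). Grey points are the genes with a mean of at least 10 CPM over the KO and WT libraries of both passages. The highest and lowest genes of the KO change and of the interaction are in red, and a dotted line marks equality. Muc5b lies at -3.99 in KO and 0.82 in WT organoids, and Muc5ac at 1.72 in KO and 0.78 in WT organoids.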

How the data were processed

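Per the labels, RNA from mouse stomach organoids was sequenced. The authors' deposited table gives raw counts per gene for 21 organoid libraries and FPKM computed by the authors from those counts. The submitters' processing notes name cutadapt 1.9.1, HISAT2 2.2.1, HTSeq 0.6.1 and the build GRCm38.p5. The strand setting is not given in the sources used here, so genes overlapping another gene (among those named Ahr, Akr1c14, Axin2, Ccn2, Cdkn1a, Clca3a2, Ctsd, Ctsl, Dnajb9, F5, Fn1, Hmga2, Hsp90b1, Hspa1a, Icam1, Il1a, Irx3, Krt8, Lgals2, Manf, Muc13, Muc20 with Muc4, Olfm4, Pdia3, Pdia6, Pitx1, Plagl1, Ptgs1, Scd2, Selenop, Slc9a4, Snrpn, Sqstm1, Tff1 and Tiparp) and members of similar families are uncertain. The table's coordinates matched GENCODE M21 (GRCm38) for 1472 of 52073 identifiers, so positions are from GENCODE M21.

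The counts were fitted with edgeR 4.0.16 in R 4.3.3 over 18 libraries in 6 groups. The fit used TMM scaling, the quasi-likelihood test and Benjamini-Hochberg adjustment over 14984 genes. For filterByExpr the minimum count was 10 and the minimum total 15. That filter can be met through libraries of any group, so genes with few KO counts, such as Ppp1r3a, were tested. The 3 WT passage 15 libraries were left out because an earlier account of these data gave them a larger spread, measured here as 21.1%, and enter 1 alternative, and 6 sorted-cell libraries were not analysed here. Replicate numbers did not pair the libraries (correlations of their deviations -0.00335, 0.0147 and -0.00828). Replicates of 1 group differed beyond sampling noise in all 6 groups (chi-square per degree of freedom 1.57 to 2.57). The fit was tested on simulated data. Alternatives were other scalings, filters and libraries in the fit, DESeq2 1.42.0, the replicate block, moderation, and each library left out.

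The organoid groups, the 56 gene lists and the rules were chosen with earlier results of these data known. Named were Gpx4 and Bhlha15, and the 10 highest and 10 lowest called genes with a mean of at least 10 CPM. The last were taken only where the KO P10 and KO P5 libraries did not overlap. Also named were genes with 0 counts at a passage and up to 4 members per list by adjusted p, with 2 of the other direction. The 6 highest and lowest interaction values completed the rule. Except for list members, only protein-coding genes with a gene name were taken. A few genes that the rule chose are not reported here. Ahrr, Axin2, Calr, Canx, Cdx2, Creld2, Ctse, Dnajc3, Gata4, Gkn3, Hsp90b1, Hspa1a, Hspa5, Irx3, Muc4, Muc20, Sox2, Spdef, Tff1 and Vsig1 fell outside that rule and were named after their values were seen, as were the genes with changes of 16-fold or more (Cyp1b1, F5, Hs6st2, Msx1, Pdpn, Rps6ka6, Runx3, Tmem154 and Zfp268).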

Additional observations from a re-analysis of the deposited data

Results flagged for a closer look

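Among Gpx4, Bhlha15, the genes reported with the highest and lowest changes or interaction values and those near 0 counts at a passage, the passage change differed between the genotypes for 32, by the test of the genotype by passage interaction (edgeR's quasi-likelihood test, adjusted over 14984 genes). Each value is the KO change minus the WT change on the log2 scale. Other members of the gene lists passed the same test and are not listed here. The change was more positive in KO organoids for the secreted and surface mucous genes Clca1 (1.11), Psca (1.04), Muc5ac (0.94), Gkn1 (0.59) and Gkn2 (0.58), and for Rep15 (0.97), Lgals2 (0.58), Adh7 (0.52) and Hmga2 (1.498) as well. Of the 15 pit cell genes tested, 7 had a higher and 5 a lower change in KO organoids. Of the 12 neck cell genes 7 had a higher and 2 a lower one, against 20.1% of all genes called in either direction. The change was more negative for Muc5b (-4.805), Olfm4 (-2.94) and Tff2 (-1.47), for the secretory regulator Bhlha15 (-1.13) and for Pdpn (-7.32), and for F5 (-4.75), Enpp3 (-3.002), Akr1c14 (-3.17), Nos2 (-2.69), Ugt2b35 (-2.43), Apob (-1.74), C4bp (-1.67), Ehhadh (-1.49) and Dmbt1 (-1.303). The low-level genes with a more positive change were Rps6ka6 (7.34), Msx1 (6.09), Cyp1b1 (4.87), Hs6st2 (4.29) and Zfp268 (3.92). For Cyp1a1, Runx3, Tmem154 and Ppp1r3a the difference did not pass the test. The change was also more positive in KO organoids for Ggta1 (2.16), Cdhr2 (2.096), Cnfn (1.92) and Lipo3 (1.56), which fell in WT organoids. Without the first WT passage 5 library the call was lost for Hs6st2 (3.69, adjusted p = 0.0631) and Rps6ka6 (6.11, adjusted p = 0.113). Without the third it was lost for Msx1 (5.41, adjusted p = 0.0663) and Zfp268 (3.14, adjusted p = 0.0987).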

How the results depend on the processing

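Among the named genes, no called KO change or interaction value changed sign under any alternative run. Signs were not compared for the other genes. With the WT passage 15 libraries added (all 21 libraries), fewer genes were called: 588 higher and 562 lower in KO organoids, 309 higher and 429 lower in WT organoids, and 473 higher and 424 lower in the interaction. The shared estimate of the spread was 8.23% in that fit and 2.41% in the one reported. Among the values of named genes that fit kept 430 on their side of the threshold and lost 206 calls, and it moved 68 of 112 counts of list members. Of the 1150 KO calls of that fit, 1145 were among the 3330 reported. With a mean of at least 1 CPM required, which tests fewer genes, 91 genes were 2-fold higher and 116 were 2-fold lower. Leaving out each KO library gave 2821 to 3005 KO calls, with 1432 to 1542 higher and 1389 to 1463 lower, and leaving out each KO or WT library gave 2709 to 2922 interaction calls. DESeq2 called 2781 genes, 2780 of them shared. In the fit with the replicate block 3294 genes were called, 3282 of them shared, and the numbers do not pair the libraries. Low counts limit the genes near 0 at a passage, whose fold changes depend on single libraries.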
